A study of Rattus norvegicus with 6 samples.

Results

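Tspan8, Clu, Ctse and Apoa4 were grouped here as columnar and gastrointestinal markers and followed across 3 rat esophageal tumor cell lines. Clu was also placed with apolipoproteins and extracellular chaperones, so its ratio is not read as that of a columnar marker alone. Spots were taken by gene symbol from the array annotation, which gave 8 of 16128 spots, or 4 of 3158 named genes. Each gene was measured by 1 cDNA clone printed as a pair of spots. The 4 genes were picked with earlier results of the same arrays known. Their ratios of tumor line over normal pool are therefore given as a description, with no test.

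The tumor lines were JA, JB and Amy, each derived from an esophageal tumor that reflux had induced in a rat. Reflux is the return of gastric fluid to the esophagus. The normal pool was a 1:1 mixture of 2 normal esophageal cell lines, Normal1 and Normal2, and it was hybridized on every array. Total RNA of each line was hybridized against this pool on 2 two-colour cDNA arrays. The line carried the dye Cy3 on one of them, called its Cy3 array here, and the dye Cy5 on the other, its Cy5 array. These 2 arrays are a technical dye swap, so a line counts as 1 replicate. The number of lines limits the precision. No age, passage or treatment of the cells is given in the labels, and each line stands for 1 tumor culture. A smaller share of expressing cells and less RNA per cell cannot be told apart in such extracts.

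All values are log ratios, taken as base 2. A value of 1 is 2-fold higher and -1 is 2-fold lower in the tumor line. The direction of line over pool is likely but not settled, since it rests on the order of names in the sample titles. Turning it would exchange higher and lower throughout. Array medians lay between -0.155 and -0.051, and the pairs of spots of a clone correlated at 0.907 to 0.949 within an array. The 2 arrays of a line correlated at 0.815 to 0.888 across features. A feature is a gene or a clone without a single gene name. No spot intensities were used here. Hence the level of a gene in either RNA is not known, and the labelled tissue could be set beside its markers only as ratios.

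The normal esophagus is lined by squamous epithelium, whereas stomach and intestine are lined by a single layer of columnar cells. In people with chronic reflux, columnar epithelium with gastric or intestinal features can replace the squamous lining, a change known as Barrett's esophagus. Tspan8 is a tetraspanin, a membrane protein that forms surface complexes with integrins and other partners, and it was first known as an antigen of gastrointestinal carcinomas. Clu encodes clusterin, a secreted chaperone also called apolipoprotein J. Ctse encodes cathepsin E, an intracellular aspartic protease of gastric surface mucous cells that some immune cells also make. Apoa4 encodes apolipoprotein A-IV, which enterocytes secrete with dietary lipid. Transcription factors of the CDX, GATA, HNF1 and HNF4 families regulate many genes of mouse intestinal epithelium.

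In the GRCr8 assembly of the rat genome, RefSeq places Tspan8 at chr7:53331019-53365402, Clu at chr15:44336619-44375861, Ctse at chr13:45644168-45666722 and Apoa4 at chr8:55435779-55438160. The windows from 250 bases before to 50 bases after 1 annotated start were matched for 3 of the genes. They are shown because 1 of these genes stood higher and the others lower in the tumor lines. Each is written 5′ to 3′ on the plus strand, and capitals mark the motif matches described next. The Tspan8 window is chr7:53330937-53331236, that of Ctse is chr13:45643965-45644264 and that of Apoa4 is chr8:55435529-55435828. For Tspan8 and Ctse the start used lies inside the gene span given above. For Apoa4 it is the first base of that span.
Tspan8: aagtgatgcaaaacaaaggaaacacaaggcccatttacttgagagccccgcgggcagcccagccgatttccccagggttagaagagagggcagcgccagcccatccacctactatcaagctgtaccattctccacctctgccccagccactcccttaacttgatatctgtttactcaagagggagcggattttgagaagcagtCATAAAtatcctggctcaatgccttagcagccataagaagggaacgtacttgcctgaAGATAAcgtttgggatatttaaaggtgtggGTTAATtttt
Ctse: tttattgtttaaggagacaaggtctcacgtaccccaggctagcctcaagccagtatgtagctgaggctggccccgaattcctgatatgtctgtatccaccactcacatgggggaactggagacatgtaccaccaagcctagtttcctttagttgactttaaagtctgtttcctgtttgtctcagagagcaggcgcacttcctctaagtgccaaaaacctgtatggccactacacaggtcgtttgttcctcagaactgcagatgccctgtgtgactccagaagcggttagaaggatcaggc
Apoa4: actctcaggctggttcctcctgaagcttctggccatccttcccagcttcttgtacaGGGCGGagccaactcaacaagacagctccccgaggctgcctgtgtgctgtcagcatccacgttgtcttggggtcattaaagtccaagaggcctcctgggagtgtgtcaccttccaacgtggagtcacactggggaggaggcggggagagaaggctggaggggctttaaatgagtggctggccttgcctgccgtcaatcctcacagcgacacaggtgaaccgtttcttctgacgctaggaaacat

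A set of 7 motifs, chosen with the gene values known, was searched on both strands of these windows, and none of the matches overlapped. The Tspan8 window held the CDX motif TTTATG, read as CATAAA on the plus strand, 47 bases before the start. It also held the GATA motif AGATAA 10 bases after the start and the HNF1 motif GTTAAT 40 bases after it. All of these Tspan8 matches, that of CDX included, lie inside the RefSeq span of the gene and not upstream of it. The Apoa4 window held the GC box GGGCGG 194 bases before the start, and the Ctse window held none of the letters searched. Among 33469 rat promoter windows of the same length, TTTATG was in 12.7%, AGATAA in 11.6%, GTTAAT in 7.45% and GGGCGG in 33.1%. The TATA box TATAAA was in 14.2%, the nuclear receptor motif AGGTCA in 16.2% and the AP-1 motif TGANTCA in 7.33% of all windows, and none was in the 3 shown. The G and C content was 48.3% for Tspan8, 49.3% for Ctse and 57.0% for Apoa4, against a median of 51.7% over all windows. A match describes letters in a window and not a bound site.

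Tspan8 was the gene of the 4 that stood higher in the tumor lines. Its log2 ratio was 2.60 on the Cy3 array of JA and 2.86 on its Cy5 array. In JB it was 3.83 and 3.09, and in Amy 3.51 and 2.96, in the same dye order. The lowest array was JA in Cy3 and the highest was JB in Cy3, and in each dye orientation the lines kept one order. The mean was 3.14 ± 0.37 (SD, n = 3 lines), or 8.83-fold over the pool. By line the ratio was 6.65-fold in JA, 11.0-fold in JB and 9.42-fold in Amy. Among 3158 named genes Tspan8 ranked 6 from the top on the mean, and 20 from the top in JA, 6 in JB and 5 in Amy.

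Clu stood lower by a like amount. Its log2 ratio was -3.63 on the Cy3 array of JA and -4.13 on its Cy5 array. JB gave -2.36 and -2.59, and Amy gave -2.96 and -3.20. The JA arrays were the lowest and the JB arrays the highest, and the arrays of the 3 lines did not overlap, as held for 15.5% of all features. The mean was -3.14 ± 0.70 (SD, n = 3 lines), which is 8.85-fold lower than the pool. By line Clu was 14.7-fold lower in JA, 5.56-fold lower in JB and 8.46-fold lower in Amy. It was the 89th lowest of the named genes on the mean.

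Ctse and Apoa4 stood lower by smaller amounts. Ctse had log2 ratios of -1.96 and -2.09 in JA, -1.50 and -1.76 in JB, and -1.18 and -1.17 in Amy, Cy3 before Cy5. As for Clu, the lines did not overlap (15.5% of all features), with JA lowest and Amy highest. The mean was -1.61 ± 0.42 (SD, n = 3 lines), or 3.05-fold lower than the pool. Apoa4 had -1.76 and -1.37 in JA, -1.10 and -0.76 in JB, and -1.65 and -1.25 in Amy. JB was the highest line, and the arrays of JA and Amy overlapped. The mean was -1.32 ± 0.34 (SD, n = 3 lines), or 2.49-fold lower than the pool. On the mean, Ctse was 264th and Apoa4 361st from the lowest of the named genes.

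**Figure D1:**
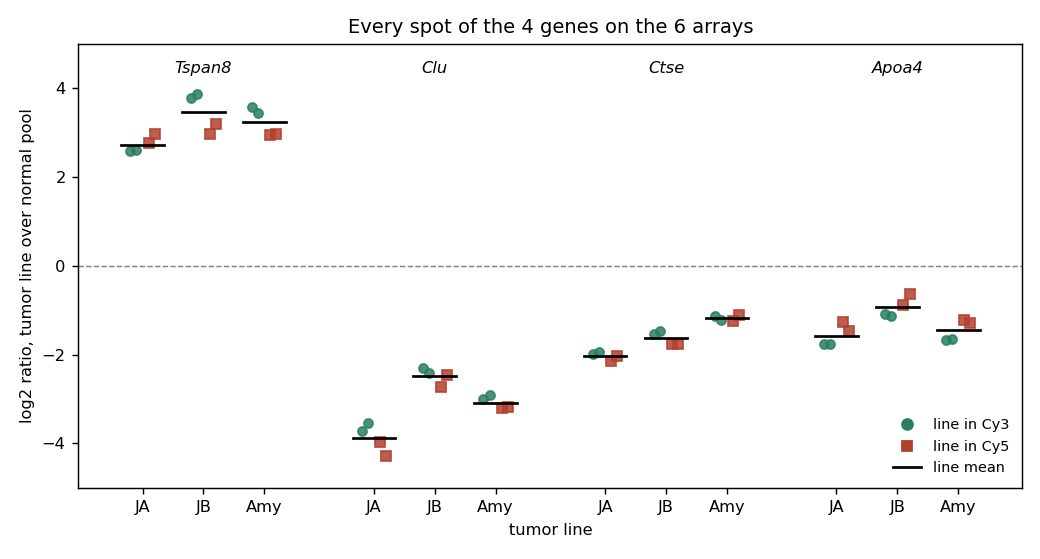
Log2 ratio of tumor line over normal pool (vertical axis) for each of the 2 spots of Tspan8, Clu, Ctse and Apoa4, by tumor line (horizontal axis); green circles are arrays with the line in Cy3, red squares arrays with the line in Cy5, and bars the line means. Every Tspan8 spot lies above 0 and every Clu, Ctse and Apoa4 spot below it; line means run between 2.73 and 3.46 for Tspan8 and between -3.88 and -2.48 for Clu.

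Spots and dyes agreed closely beside the size of these ratios. The 2 spots of a gene on an array differed by at most 0.23 for Tspan8, 0.33 for Clu, 0.14 for Ctse and 0.24 for Apoa4, where the median gap over all clones was 0.12. Averaged over lines, Tspan8 was 3.32 on Cy3 arrays and 2.97 on Cy5 arrays, and Clu was -2.98 and -3.31. Ctse was -1.55 and -1.67, and Apoa4 was -1.51 and -1.13. The differences between dye orientations, from 0.13 to 0.38 in size, lie around the median of 0.27 over all features. A check against a further clone was not possible for these genes. Among the 499 named genes measured by 2 clones, the clones differed by a median of 0.44, and by at least 1 in 26.3%. The 2 clones had opposite signs in 31.5% of these genes.

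Of the 4 genes, 3 reached 2-fold with one sign on all 6 arrays. Tspan8 was higher, as were 2.83% of all 7180 features, while Clu and Ctse were lower, as were 8.12%. Apoa4 fell short of 2-fold on 1 array, that of JB in Cy5. All 4 kept one sign on all 6 arrays, which held for 22.5% of features above 0 and 33.4% below. These values chose the genes, and the shares are given only to place them. The median of all features was -0.12, so the ratios relative to it are a little larger for Tspan8 and smaller for the others. With each array centred on its median, Tspan8 stood at 3.27, Clu at -3.02, Ctse at -1.49 and Apoa4 at -1.19.

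**Figure D2:**
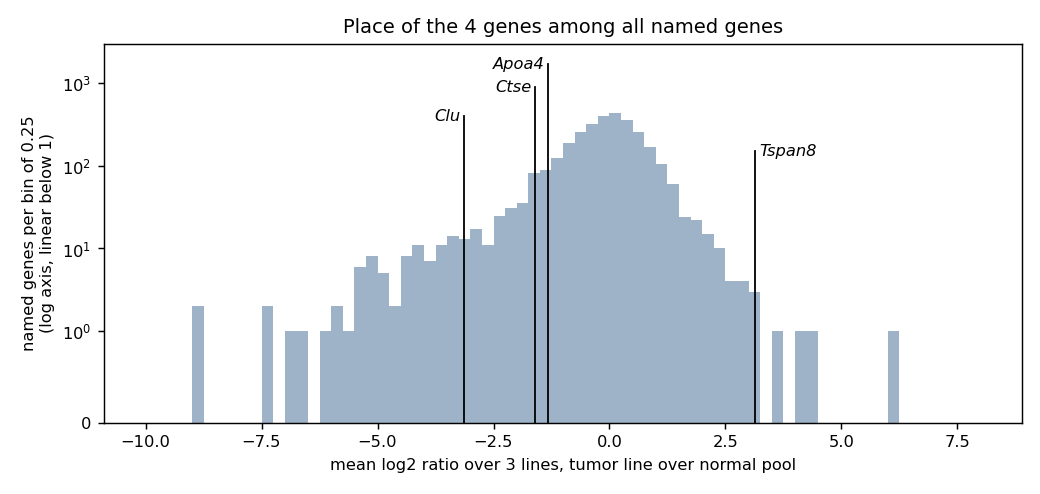
Number of named genes (vertical axis, logarithmic and linear below 1) by mean log2 ratio over the 3 lines (horizontal axis, bins of 0.25), with vertical lines at the means of the 4 genes. Tspan8, at 3.14, lies in the upper tail, where 0.158% of named genes are higher; Clu, at -3.14, lies in the lower tail, where 2.79% are lower; Ctse and Apoa4, at -1.61 and -1.32, lie nearer the centre.

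The next comparison asked how the 3 tumor lines differed from each other in these genes. Since the genes were picked with earlier results of the same arrays known, these differences are a description as well. Each pair sets 1 line against 1 line, so no test was possible. A difference was counted where it reached 1 on the log2 scale with one sign in both dye orientations. Clu met this between JB and JA and was 1.27 higher in JB on the Cy3 arrays and 1.53 higher on the Cy5 arrays. Over all features 2.51% were higher in JB than in JA by this rule, and 3.68% differed in either direction. No other of the 12 differences, 3 for each gene, met it. Between Amy and JA 1.56% of features did, and between JB and Amy 4.19%. Tspan8 was higher in JB than in JA by 1.23 in Cy3, but by 0.23 in Cy5.

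The order of the lines differed between genes. Tspan8 ran from JB at 3.46 through Amy at 3.24 to JA at 2.73. On the Cy5 arrays these ratios were within 0.23 of each other, so the order rests mainly on the arrays in Cy3. With quantile normalization Amy was the highest, JB minus Amy being -0.25 in place of 0.22 and Amy minus JA 0.98 in place of 0.50. Clu ran from JB at -2.48 through Amy at -3.08 to JA at -3.88. JB minus Amy was 0.61 in Cy3 and 0.60 in Cy5, and Amy minus JA was 0.66 and 0.93. Ctse ran from Amy at -1.18 through JB at -1.63 to JA at -2.02, with steps of 0.46 and 0.39. Apoa4 ran from JB at -0.93 through Amy at -1.45 to JA at -1.57. Amy minus JA was 0.11 in Cy3 and 0.12 in Cy5, and -0.11 with quantile normalization.

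JA was thus the lowest line for each of the 4 genes in both dye orientations. This was noticed after the values were seen. JA was lowest in both orientations for 18.1% of all features, JB for 18.4% and Amy for 20.8%. With centred arrays JA stayed lowest for all 4 genes, and with quantile normalization for Tspan8, Clu and Ctse, while Apoa4 was then lowest in Amy. The mean differences between JB and JA were 0.73 for Tspan8, 1.40 for Clu, 0.39 for Ctse and 0.63 for Apoa4. Those between Amy and JA were 0.50, 0.80, 0.85 and 0.12 in the same gene order. The medians of these differences over all features were 0.02 and -0.02. The pairs share arrays, and the values are therefore set side by side only.

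**Figure D3:**
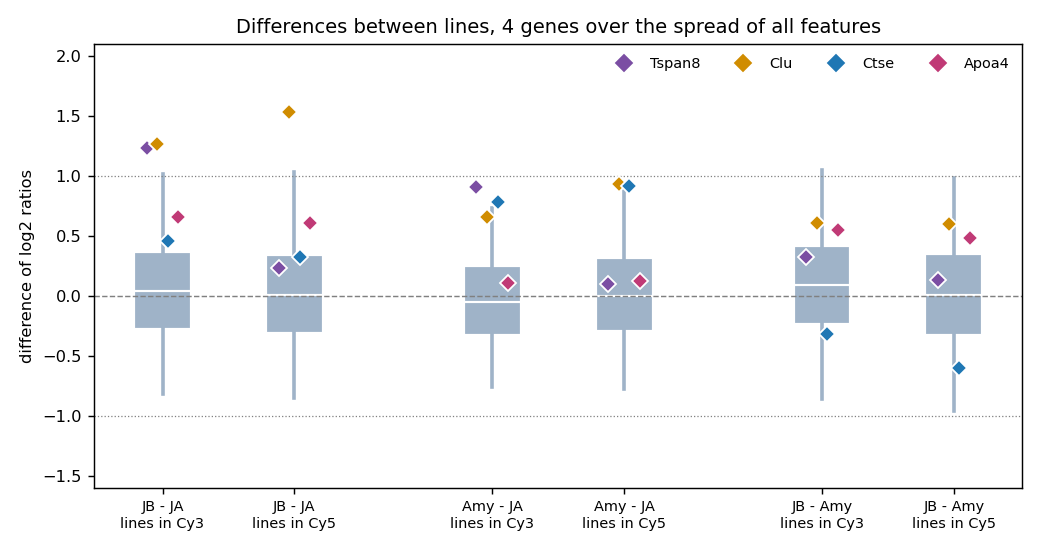
Difference of log2 ratios between 2 tumor lines (vertical axis) for the 4 genes (diamonds) in each dye orientation (horizontal axis); grey boxes span the middle 50% of all 7180 features with the median in white, whiskers reach the 5th and 95th percentiles, and dotted lines mark 1 and -1. Clu lies above 1 in both orientations of JB minus JA, and every difference from JA is above 0.

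The genes with the most similar values on the 6 arrays were then listed for each of the 4, by the root mean square difference in log2 ratio among named genes. All share the pool and the arrays. For Tspan8 the nearest were the opioid peptide precursor Penk at 0.621, the mitotic kinase Plk1 at 0.628 and the mitotic activator Cdc20 at 0.712. For Clu they were the galactosyltransferase gene B4galt2 at 0.436, the ubiquitin ligase subunit gene Asb2 at 0.439 and Pdlim2 at 0.442. Ctse lay nearest to Uba2, a subunit of the SUMO-activating enzyme, at 0.165, to the ubiquitin ligase gene Rnf185 at 0.201 and to the stress gene Gadd45g at 0.222. Apoa4 lay nearest to Pank4 at 0.150, Cnbd2 at 0.177 and the Golgi matrix gene Golga2 at 0.185. Among the 4 genes themselves, Ctse and Apoa4 were closest at 0.568, and Clu was 1.62 from Ctse and 1.89 from Apoa4. The 2 clones of B4galt2 stood at -5.88 and -0.73, so its likeness to Clu is that of an average. Of these 12 genes only Golga2 lost its call without a line, at an adjusted p of 0.0507 in limma without JA. Without moderation of the variances 8 of the 12 lost it. The 12 were picked for ratios like those of the 4 genes, so passing was largely set by that choice.

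The wider set of columnar, gastric and intestinal genes was thinly covered and moved both ways. Of 142 symbols on the 3 lists, 18 were measured, the 4 genes included. In limma 3 of the other 14 rose, 5 fell and 5 did not pass at an adjusted p under 0.05, with a median log2 ratio of 0.02. The remaining one, Apoa2, passed with opposite signs in the dyes. Over all 7180 features 20.7% were called higher and 32.8% lower, with a median of -0.12, and 0.919% were called with opposite signs in the dyes. By the sign of the mean, which places Apoa2 among the higher, 4 of the 14 were called higher and 5 lower with every array. Without JA these counts were 1 and 3, without Amy 2 and 3, and without the JB array in Cy5 1 and 2. They were 3 and 2 from the Cy3 arrays alone, 1 and 3 when a variance for the pool was added, and 1 and 2 without moderation of the variances.

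Among general columnar genes, ezrin (Ezr), which links the membrane of microvilli to actin, rose to 0.55 ± 0.23 (SD, n = 3 lines; adjusted p = 0.0229, limma). Its adjusted p was 0.122 without JA, 0.0985 without Amy and 0.0567 without the JB array in Cy5. Keratin 7 (Krt7), a keratin of simple epithelia, fell to -0.76 ± 0.38 (adjusted p = 0.0177). That call was lost without JA (0.111), without Amy (0.0938) and without the JB array in Cy5 (0.0595). Krt8, the keratin partner in simple epithelia, stood at 0.41 ± 0.40 and the protease inhibitor Spint2 at 0.27 ± 0.39, and neither passed. From the Cy5 arrays alone Krt8 passed (adjusted p = 0.0364). Ctse was the only gastric gene of 30 on the list that was measured.

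Among the 10 intestinal genes beside Apoa4, 2 rose, 4 fell and 3 did not pass, while Apoa2 passed with opposite signs in the dyes. Over all features 20.5% were called higher and 32.1% lower in both dyes. The fructose transporter Slc2a5 had 1.31, 1.34 and 1.33 on the Cy3 arrays of JA, JB and Amy, and 1.13, 1.00 and 1.01 on their Cy5 arrays. All lines were at about the same ratio, and the mean rose to 1.19 ± 0.03 (adjusted p = 0.00125). The water channel Aqp8 rose to 0.90 ± 0.62 (adjusted p = 0.0308), with 1.62 in JA against 0.55 in JB and 0.54 in Amy. This call was lost without JA (0.0681), without Amy (0.0638), without the JB array in Cy5 (0.0677) and without the Amy array in Cy5 (0.0521). Slc2a5 kept its call in all 16 alternatives run for single genes.

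Aminopeptidase N (Anpep), a brush-border peptidase, fell to -1.07 ± 0.35 (adjusted p = 0.00529), as the mean of 3 clones between -2.84 and 0.34. The subunits Mep1a and Mep1b of meprin, another such peptidase, fell to -0.72 ± 0.07 and -0.60 ± 0.22 (adjusted p = 0.00524 and 0.0161). Mep1a averaged -0.26 on Cy3 arrays and -1.19 on Cy5 arrays. From the Cy3 arrays alone Mep1a (0.256) and Anpep (0.0591) did not pass. The calls were lost without the JB array in Cy5 for Anpep (0.0596) and Mep1a (0.0792), without the JA array in Cy5 for Mep1a (0.0591), and without JA (0.0904) or Amy (0.0693) for Mep1b. Lysozyme (Lyz2), which is made by macrophages and is also on the leukocyte list, fell to -2.48 ± 0.31 (adjusted p = 4.18e-04), with clones at -4.55 and -0.41.

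Apoa2, an apolipoprotein of high-density lipoprotein like the product of Apoa4, went opposite ways by dye. It had 2.13, 2.46 and 2.64 on the Cy3 arrays of JA, JB and Amy, and -0.71, -0.89 and -1.54 on their Cy5 arrays. Every Cy3 array was above 0 and every Cy5 array below it, while the line means lay close together at 0.71, 0.78 and 0.55. The mean of 0.68 ± 0.12 passed in limma (adjusted p = 0.00726) after its dyes were averaged, and no direction is drawn from it. Left without 1 array it was lost: 0.612 without JA in Cy3, 0.778 without JB in Cy3, 0.0505 without JB in Cy5 and 0.981 without Amy in Cy3. It was 0.0548 without JA. A dye difference of at least 2 was seen in 1.13% of features.

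Tff3, the trefoil peptide of goblet cells, stood at 0.86 in JB, against -0.46 in JA and -0.90 in Amy. Its mean of -0.17 ± 0.91 did not pass (adjusted p = 0.707), and without JB it did (0.0209). The gut hormone gene Cck stood at -0.15 ± 0.13 and Dgat1, which completes triglyceride synthesis, at 0.20 ± 0.37. Neither passed.

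**Figure D4:**
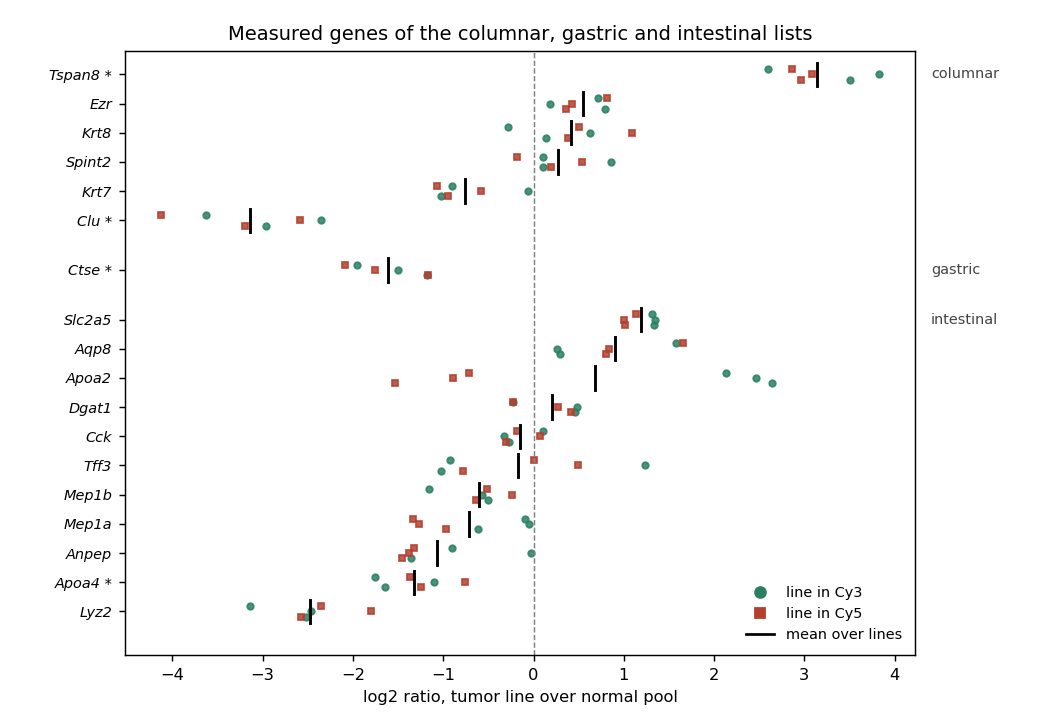
Log2 ratio of tumor line over normal pool (horizontal axis) on each of 6 arrays for the 18 measured genes of the columnar, gastric and intestinal lists (rows; an asterisk marks Tspan8, Clu, Ctse and Apoa4); green circles are arrays with the line in Cy3, red squares in Cy5, and black bars the mean over lines. Most genes lie between -1.5 and 1.5, Tspan8 and Clu lie farthest out, and the dyes of Apoa2 lie on opposite sides of 0.

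Tspan8 had the largest ratio in size among the measured tetraspanins and their partners. Of the 10 others on that list, 2 rose, 1 fell and 6 missed the threshold, with a median of -0.07. Cd53 passed with opposite signs in the dyes. The shares of all features called in both dyes were 20.5% higher and 32.1% lower. The tetraspanin Tspan7 rose to 0.80 ± 0.20 (adjusted p = 0.00616) and the integrin chain Itgb1, a partner of tetraspanins, to 0.73 ± 0.17 (adjusted p = 0.00719), with clones at 0.06 and 1.40. Itgb1 missed without JA (0.0522). Tspan6 fell to -1.18 ± 0.15 (adjusted p = 0.00169), but its clones stood at -2.62 and 0.25. Ptgfrn, which binds tetraspanins at the membrane, missed the threshold at 0.43 ± 0.63.

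Cd53, a tetraspanin of leukocytes, averaged 0.73 on Cy3 arrays and -1.68 on Cy5 arrays. Its mean of -0.48 ± 0.20 passed (adjusted p = 0.0313), and no direction is drawn from it. The call was lost with the replicate block, that is with dye orientation as a term (0.331), and with centred arrays (0.0806). It was also lost without JA (0.0780), JB (0.0986) or Amy (0.101), without the arrays of JA (0.796) or Amy (0.359) in Cy5, and without either JB array (0.0973 for Cy3, 0.767 for Cy5).

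Clu and Apoa4 both belong to the apolipoproteins and lipoprotein handling list. Of the 6 others measured, 1 rose, 1 fell and 3 missed the threshold, with a median of 0.05. Apoa2 passed with opposite signs in the dyes. Here too the shares over all features were 20.5% higher and 32.1% lower in both dyes. The cholesterol exporter Abcg1 rose to 0.78 ± 0.40 (adjusted p = 0.0179), a call lost without JA (0.107). Lrp2, a receptor that takes up clusterin and apolipoproteins, fell to -1.30 ± 0.31 (adjusted p = 0.00248). Lipoprotein lipase (Lpl) had 1.40 and 1.01 in JB, against -2.35 and -2.73 in JA and -3.12 and -3.34 in Amy, Cy3 before Cy5. JB lay apart from the other lines, and the mean of -1.52 ± 2.39 did not pass (adjusted p = 0.192), though it did without JB (1.65e-04).

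Of the 8 others on the cathepsin, aspartic protease and cystatin list, 4 fell, 1 rose and 3 missed the threshold, with a median of -0.71. Over all features 32.8% were called lower and 20.7% higher. The list genes that fell were the cathepsins Ctsk, Ctsl and Ctsd and the cystatin Cstb. The lysosomal cysteine proteases Ctsk and Ctsl fell to -3.84 ± 0.33 and -1.92 ± 0.88 (adjusted p = 1.29e-04 and 0.00727). The aspartic protease Ctsd fell to -1.73 ± 0.83 (adjusted p = 0.00851), with -2.81 and -2.29 in JA, -1.19 and -0.60 in JB, and -1.95 and -1.55 in Amy. JA was its lowest line and JB its highest. Ctsh rose to 1.00 ± 0.45 (adjusted p = 0.0104). That call was lost when a variance for the pool was added (0.0676) and without moderation of the variances (0.125). Ctsc stood at -0.74 ± 0.69 (adjusted p = 0.0685), and passed without Amy (0.0307), without the Amy array in Cy5 (0.0462) and with the replicate block (0.0323). The calls of Ctsl and Ctsd were lost without JA (0.0664) and without Amy (0.0518), in that order.

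Complement genes and extracellular chaperones, the proteins with which clusterin is grouped by function, were represented by 4 others. Of these, 3 fell, none rose and 1 missed the threshold, with a median of -0.75, where 32.8% of all features fell and 20.7% rose. The complement subunit C1qc fell to -2.13 ± 0.09 and the protease inhibitor A2m to -1.01 ± 0.06 (adjusted p = 2.48e-04 and 0.00203), with all 6 arrays of each below 0. The chaperone Cryab stood at -0.49 ± 0.24 (adjusted p = 0.0350). This call was lost with centred arrays (0.0857), without JA (0.0552), JB (0.0997) or Amy (0.142), and without 1 array it was 0.151 (JA in Cy3), 0.0725 (JB in Cy3), 0.0502 (JB in Cy5) and 0.0541 (Amy in Cy3). Ahsg, at 0.04 ± 0.44, did not pass.

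**Figure D5:**
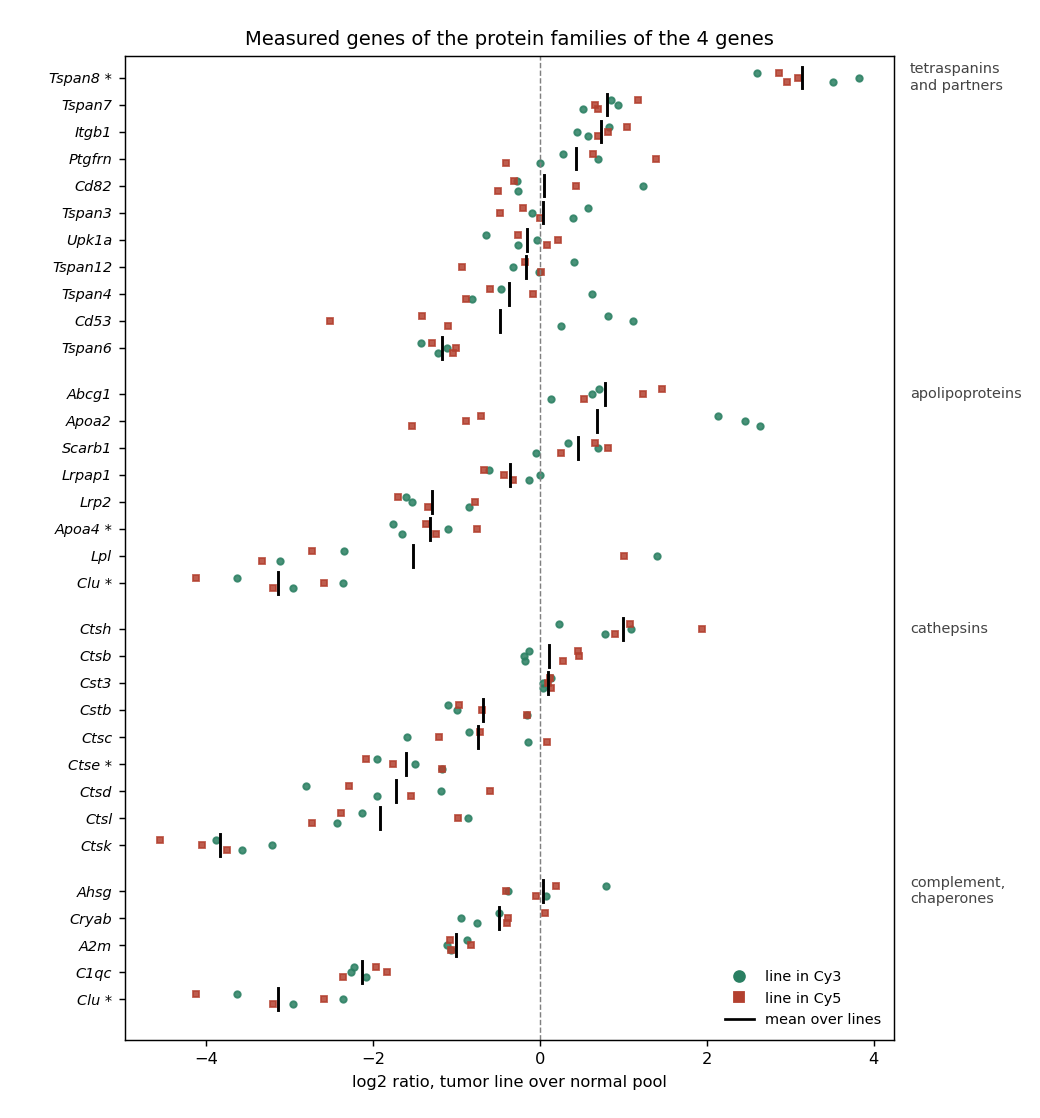
Log2 ratio of tumor line over normal pool (horizontal axis) on each of 6 arrays for the measured genes of 4 lists of related proteins (rows; an asterisk marks Tspan8, Clu, Ctse and Apoa4, and Clu is on 2 lists); green circles are arrays with the line in Cy3, red squares in Cy5, and black bars the mean over lines. Tspan8 lies above every other tetraspanin list member, and Ctsk, at -3.84, lies below Ctse.

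Squamous genes and markers of other cell types were read beside these results. Of 44 squamous symbols 3 were measured. Galectin-7 (Lgals7) fell to -5.82 ± 1.01 (adjusted p = 4.37e-04), annexin A1 (Anxa1) rose to 1.39 ± 0.38 (adjusted p = 0.00292), and cystatin B (Cstb) fell to -0.68 ± 0.46 (adjusted p = 0.0364). The call of Cstb was lost with centred arrays (0.0671) and without JA (0.181) or JB (0.0742). For these and the next lists, 20.5% of all features were called higher and 32.1% lower in both dyes. In the fibroblast and matrix list 16 of 18 fell and 1 rose, with a median of -3.10. In the leukocyte list 7 of 10 fell and 1 rose, with a median of -3.02, and Cd53 passed with opposite signs in the dyes. All 7 muscle and all 3 endothelial genes fell, with medians of -1.82 and -1.53. In the direction assumed, these genes were higher in the pool, which the labels call normal esophageal cell lines. The reason was not tested. Most of these markers moved in the direction of Clu, Ctse and Apoa4. Their part in those ratios was not tested.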

How the data were processed

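Log ratios of 6 arrays were analysed. The authors deposited 1 log ratio per spot and array, taken here as log2; scanner, background correction, normalization, centring and log base are not given in the sources used here. The base was taken as 2 because the lowest value, -12.726, would lie beyond what a scanner can record in another common base. Both arrays of a line already ran in one direction, and no sign was changed. Array number 1 has the line in Cy3 and number 2 in Cy5, per the labels. Differences between these orientations correlated at 0.613, 0.552 and 0.526 between pairs of lines, so the numbers pair the arrays.

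The platform annotation gave 1 gene symbol to 8084 of 16128 spots, several to 40 and none to 8004; 8076 matched RefSeq genes of GRCr8 by gene identifier and 0 symbols changed. Spots were averaged per clone and clones per gene. The 7180 features were 3158 genes and 4022 clones without a single name.

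Arrays of a line were averaged, and the mean of 3 lines was tested against 0 with limma 3.58.1 in R 4.3.3 (two-sided, Benjamini-Hochberg over all features, threshold 0.05, no filter on low values). The pool enters as a single control, so its spread is not part of the p-values, which cover only how these lines vary. The fit was tested on simulated data. A first simulation, drawn from the raw SDs of the line values, recovered fewer large changes than the limit set for it; the spread simulated was then changed to limma's moderated SDs, and that version passed. Even there the share of false calls was above the threshold. Lines were compared by size only. The 4 genes, the lists and the motifs were chosen with earlier results of these data known.

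Named genes were the 4 genes, all measured genes of the columnar, gastric and intestinal lists, up to 6 per related list with the largest mean, and the 3 nearest genes to each of the 4. Alternatives were median centring, quantile normalization, a replicate block, each dye orientation, lines or arrays left out, a spread for the pool, single clones, unmoderated variances and other thresholds. Plots were made in Python 3.11.15 (matplotlib 3.10.9).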

Additional observations from a re-analysis of the deposited data

Results flagged for a closer look

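Among the named genes, 5 had both arrays of 1 line above 0 and both arrays of another below 0. The share of all features that did so was not counted, so this number is not read as a result. The differences between single lines were not tested. Lpl was higher in JB than in JA by 3.74 and than in Amy by 4.43 on the log2 scale. Tff3 was higher in JB than in Amy by 1.76. Ptgfrn was higher in JA than in Amy by 0.66 and in JB than in Amy by 1.25, but its Amy array in Cy3 was at -0.0. Dgat1 was higher in JB than in JA by 0.61 and in Amy than in JA by 0.67, with array values only between -0.23 and 0.48. Ahsg was higher in JA than in JB by 0.89. Tspan8, Clu, Ctse and Apoa4 had one sign in all lines and were not among them. Lines have 2 arrays each, too few for a search for outlying arrays.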

How the results depend on the processing

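In the 13 alternatives that can change a mean, the 4 genes kept their sign and moved by less than 1 SD over lines. Their means ran between 2.97 and 3.35 for Tspan8 and between -3.48 and -2.78 for Clu. They ran between -1.83 and -1.40 for Ctse and between -1.51 and -1.13 for Apoa4. The genes were chosen with one sign on every array, so leaving out lines, arrays or a dye could not turn it. Only median centring and quantile normalization could have done so. Leaving out 1 of so few lines also cannot move a mean by 1 SD. The ranges are thus given as sizes and not as a test of stability. The features called numbered 3843, against 1970 with a spread for the pool, 1040 without moderation, 2290 at an adjusted p under 0.01 and 2076 to 3716 without 1 line or array, the lowest without JA. With the replicate block (dye orientation, lines as a random block) 3913 were called. Among named genes it ended the call of Cd53 and gave one for Ctsc. The spread for the pool ended the calls of Krt7, Ezr, Apoa2, Aqp8, Mep1b, Itgb1, Cd53, Abcg1, Ctsl, Ctsd, Ctsh, Cryab and Cstb. The losses given above for single genes are not complete for this setting, for single dyes or for unmoderated variances. Of 46 named genes beside the 4, 37 were called in the main setting. Over all features 20.7% were called higher and 32.8% lower. Many of the 46 were named for a large mean or for nearness to the 4 genes, so their count is not set against those shares. Of the 37, 10 kept sign and call in the 16 alternatives run for single genes. The share of all features that did so was not counted. In the main setting fitted by single clone, 8 of these 10 had the same sign and a call in each clone. Lyz2 and Tspan6 did not. Among the 8, only Cdc20 and B4galt2 had 2 clones, so for the rest this repeats the gene result. Plk1, Cdc20, B4galt2 and Asb2 were named for nearness to the 4 genes. Features 2-fold apart numbered 264 for JB and JA, 112 for Amy and JA and 301 for JB and Amy. With a difference of at least 1.5 in each dye they were 101, 20 and 104. Where only the mean over both dye orientations had to reach 1, they were 485, 266 and 528. Signs turned for Apoa2 (-1.05 with the line in Cy5; -0.01 to 1.38 without 1 line or array), Cd53 (0.73 with the line in Cy3; -1.08 to 0.13), Ahsg (-0.09 with the line in Cy5; -0.19 to 0.25) and Tff3 (-0.68 to 0.20). Signal over background was not used here, so a ratio set by a dim channel cannot be told apart from a full one. The cause of these changes was not tested.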
